A study of Mus musculus with 29 samples.

Results

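The Janus kinases (JAKs) and the signal transducers and activators of transcription (STATs) were examined as 9 genes, the kinases Jak1, Jak2, Jak3 and Tyk2 and the factors Stat2, Stat3, Stat5a, Stat5b and Stat6. They were chosen by name, and each matched 1 entry among 24732 in the mm9 tables and 1 among 25588 in the mm10 tables. Jak1, Jak3 and Stat6 carried a mark for overlap with another gene in the mm9 tables, whereas no member carried one in the mm10 tables.

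All libraries were RNA-seq of pro-B cells sorted directly from C57BL/6 mice, with levels given as TPM, a transcript abundance scaled for gene length and library size. The mm9 tables held 3 wild-type libraries, sorted as B220+ Kit+ CD2- IgM- IgD- cells among other markers, and 2 Pax5-/- libraries, of B220+ Kit+ Ly6D+ progenitors sorted by another gate that lack the transcription factor Pax5. The mm10 tables held 3 libraries of pooled Pax5(+/+) Meox2-cre cells from mice aged 3 weeks, in which Cre is expressed ubiquitously from the Meox2 locus. Elsewhere the study lists the Pax5 genotype of those 3 libraries as heterozygous, so its sources disagree. The age of the wild-type and Pax5-/- mice was not given in the sources used here. The study concerned a fusion of PAX5 with the kinase JAK2 in leukaemia, and its tumour samples were not analysed here.

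JAKs are tyrosine kinases bound to the inner tails of cytokine receptors, and STATs are the transcription factors they phosphorylate, which then pair and enter the nucleus. In pro-B cells, the interleukin-7 receptor, built of Il7r and the common gamma chain Il2rg, acts through Jak1, Jak3 and the STAT5 proteins and is needed for B cell development in mice. Jak2 serves receptors such as that for erythropoietin, and Tyk2 those for type I interferons and interleukin-12.

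The targeted gene followed the labels. Pax5 measured 342, 386 and 391 TPM in the wild-type libraries and 43.0 and 39.1 TPM in the Pax5-/- libraries. Depth in reads was not given by the TPM files. Judged by the steps between low values, the other mm9 libraries had 0.855 to 1.54 times the depth of wild-type library 1. Marker lists of other lineages were summed over the markers found in both sets of tables. In wild-type library 1 the sum of the myeloid markers (7 of 9 listed) was 45.9 TPM against 252 and 192 TPM, and that of the 6 erythroid markers 72.0 TPM against 162 and 181 TPM. The same sums were 55.4 and 83.7 TPM and 59.1 and 10.04 TPM in the Pax5-/- libraries, and 439.5 to 1217 TPM and 214 to 308 TPM in the Meox2-cre libraries. That library was not low in every lineage, since its T cell sum (84.1 TPM against 63.8 and 81.0 TPM) and mature-B sum (6.99 TPM against 4.49 and 4.74 TPM, 3 of 4 markers) were the highest of its group. The mature-B sum was at most 4.00 TPM in the Meox2-cre and 0.466 to 0.548 TPM in the Pax5-/- libraries, and the plasmacytoid dendritic sum was 392 to 455 TPM in wild-type and 214 and 304 TPM in Pax5-/- cells. The latter fall came from Irf8 (mean 237 TPM in wild-type, 59.4 TPM in Pax5-/- cells) and Tcf4 (84.7 and 52.3 TPM). Bst2 (103 and 141 TPM) and Siglech (0.600 and 5.43 TPM) had higher means in Pax5-/- cells. Ccr9 and Klk1 were under 1 TPM in all wild-type and Pax5-/- libraries.

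The 2 STAT5 genes are near copies, and their sequences are shown because reads from the shared stretches cannot be assigned to one of them. In the mm9 GENCODE M1 annotation, Stat5b (chr11:100642045-100712038, minus strand), Stat5a (chr11:100720665-100746483, plus strand) and Stat3 (chr11:100746412-100800854, minus strand) lay in a row, with 8626 bases between Stat5b and Stat5a. Their coding sequences were identical at 90.7% of 2294 aligned bases, against 54.4% to 62.8% for the other pairs of members within each family. A stretch of 324 coding bases across exons 6, 7 and 8 was the same in both genes. The first and the last 80 bases of the compared window are printed with the bases that differ in capitals, and everything between the capital letters of the 2 ends is identical.
Stat5a, exon 6, chr11:100735317-100735396, plus strand: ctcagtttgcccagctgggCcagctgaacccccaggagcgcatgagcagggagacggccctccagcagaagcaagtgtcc
Stat5b, exon 6, chr11:100659956-100660035, minus strand: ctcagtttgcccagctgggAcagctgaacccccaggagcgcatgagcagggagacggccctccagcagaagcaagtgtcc
Stat5a, exon 8, chr11:100736238-100736317, plus strand: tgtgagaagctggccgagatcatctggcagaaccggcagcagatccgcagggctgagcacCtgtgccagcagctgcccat
Stat5b, exon 8, chr11:100659035-100659114, minus strand: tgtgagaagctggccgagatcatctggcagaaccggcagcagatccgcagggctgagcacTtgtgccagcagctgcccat

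Of the 50-base windows of the longest coding transcript, 608 of 5164 in Stat5b (11.8%) were also found in Stat5a. In Stat5a, 630 of 3556 windows (17.7%) were found elsewhere, 608 in Stat5b and 22 in Stat3, whose tail overlaps that of Stat5a by 72 bases. In the longest coding transcripts of the other 7 members, no window was found in the coding transcripts of another gene. The Stat3 windows shared with Stat5a therefore lie in a Stat3 transcript other than its longest coding one. The Stat5a and Stat5b levels are therefore less certain than those of the other members, and their sum is given beside them.

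**Figure D1:**
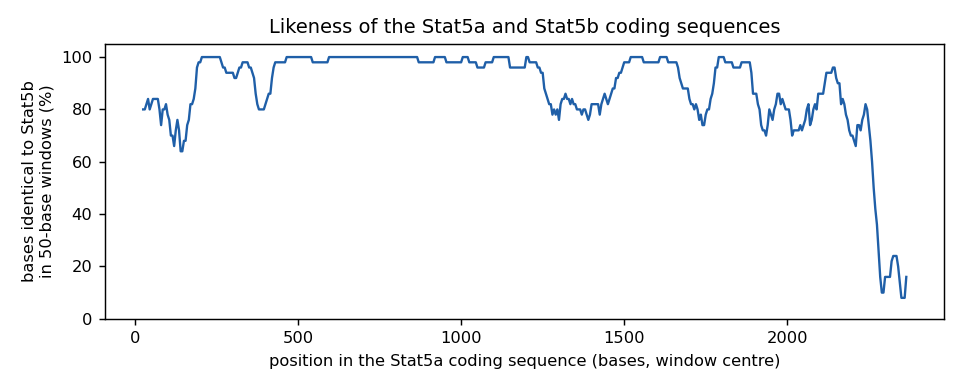
Percentage of bases identical to Stat5b in 50-base windows along the Stat5a coding sequence (x axis, position in bases). The line is at 100% for windows that lie wholly within the 324-base stretch, and 608 of 2345 coding windows (25.9%) were identical throughout.

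Jak3 and Jak1 were the most abundant members in wild-type pro-B cells. Mean levels per length ran in the order Jak3 (103 ± 10.2 TPM, SD, n = 3), Jak1 (103 ± 9.86), Stat6 (82.0 ± 4.99), Stat3 (69.0 ± 5.21), Stat5b (66.6 ± 4.30), Stat5a (50.1 ± 2.04), Tyk2 (35.2 ± 2.21), Stat2 (28.4 ± 7.20) and Jak2 (13.8 ± 3.06). The ranges of Jak3 and Jak1, of Stat3 and Stat5b, and of Tyk2 and Stat2 overlapped, and the other neighbours in the order did not. In the Pax5-/- cells Jak3 led at 148 ± 0.663 TPM (SD, n = 2), followed by Jak1 at 80.9 ± 3.75 TPM, and Jak2 was again the lowest at 7.37 ± 0.103 TPM. The 2 Pax5-/- ranges of Stat5a and Tyk2 overlapped, and no other neighbouring pair did.

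**Figure D2:**
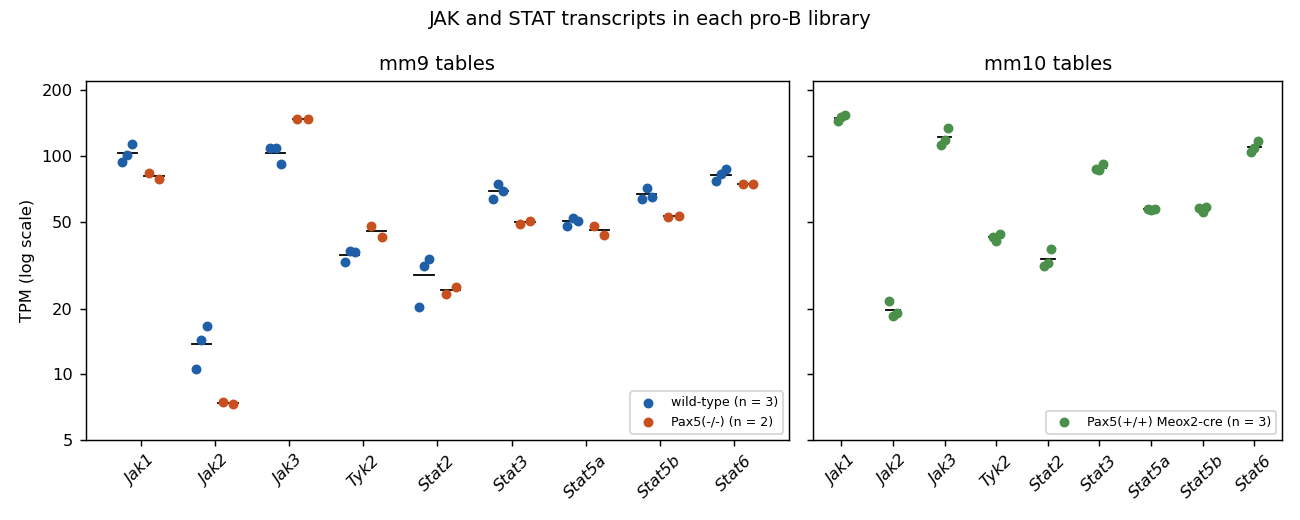
TPM of each member (log axis) in every library, with the mm9 tables on the left (3 wild-type, 2 Pax5-/-) and the mm10 tables on the right (3 Meox2-cre); points are libraries and black lines are means. Jak3 and Tyk2 are higher in both Pax5-/- libraries than in any wild-type library, and Jak1, Jak2, Stat3, Stat5b and Stat6 are lower.

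The comparison of Pax5-/- with wild-type cells asks how the levels of these signalling genes differ when Pax5 is absent. Jak2, Stat3 and Stat5b were lower and Jak3 was higher, each by less than 2-fold, at an adjusted p below 0.05 in limma on log2(TPM + 0.5). Thus 3 of 9 members were lower, where 21.5% of the 12066 genes tested were lower, and 1 of 9 was higher, where 15.6% were. With 4 of 9 members called beside 37.1% of all genes, the share called among the members was near that of the transcriptome. The members' median log2 fold change was -0.20 beside -0.12 over all genes, and the median size of change was 0.34 beside 0.39. The libraries of the genotypes did not overlap for 5 members that were lower, beside 37.4% of all genes, and for 2 that were higher, beside 26.1%. No member met the study's call (more than 3-fold, mean above 5 TPM), which 3.19% of genes met as lower and 2.74% as higher. The sort differed between genotypes along with Pax5, so the effects of genotype and of the gate cannot be told apart. Nor can fewer cells of a type be told apart from less RNA per cell in bulk libraries.

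**Figure D3:**
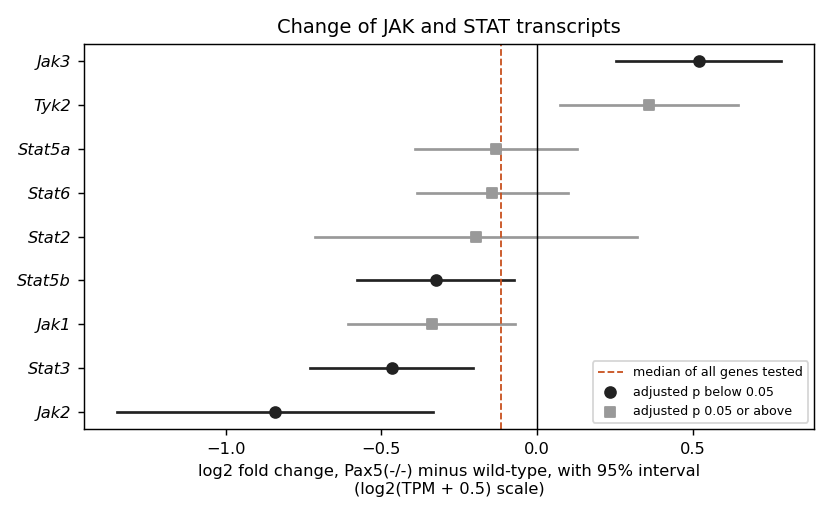
Log2 fold change (x axis, Pax5-/- minus wild-type, log2(TPM + 0.5) scale) of each member with its 95% interval from limma; black circles passed an adjusted p of 0.05, grey squares did not, and the dashed line is the median of all genes at -0.12. Jak2 is farthest to the left at -0.84 and Jak3 farthest to the right at 0.52.

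Jak2 (chr19:29326318-29387570, plus strand, mm9), a kinase of the erythropoietin receptor, showed the largest change of the members. It measured 10.5, 14.3 and 16.6 TPM in the wild-type libraries and 7.44 and 7.30 TPM in the Pax5-/- libraries. The Pax5-/- libraries were nearly equal and lay below all wild-type libraries, of which library 1 was the lowest. The log2 fold change was -0.84 (95% interval -1.35 to -0.33, adjusted p = 0.0201 by limma), and 23.0% of all genes tested changed more. The myeloid and erythroid sums were also lowest in library 1 among the wild-type libraries, as were some pro-B markers such as Dntt and Kit. The part of these differences in the Jak2 levels was not tested. Without library 1 the change was -1.02 (limma adjusted p = 0.00460), and without wild-type library 2 it was -0.80 and no longer passed (limma adjusted p = 0.0658).

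Jak3 (chr8:74200195-74214474, plus strand, mm9) is the kinase that pairs with the common gamma chain. It measured 109, 109 and 91.5 TPM in wild-type and 148 and 147 TPM in Pax5-/- cells. Both Pax5-/- values were above every wild-type value, with a log2 fold change of 0.52 (95% interval 0.25 to 0.78, adjusted p = 0.0104 by limma). The entry carried an overlap mark, and in the annotation Jak3 overlaps Insl3 by 1362 bases and Gm9933 by 379 bases. Insl3 was listed at 1.29 to 1.88 TPM in the mm9 libraries, far below Jak3. Sums of some other-lineage lists were also higher in both Pax5-/- libraries than in any wild-type library. The T cell sum was 203 and 208 TPM against 63.8 to 84.1 TPM, the natural killer and innate lymphoid sum 19.8 and 24.6 TPM against 4.11 to 14.6 TPM, and the megakaryocyte sum 34.03 and 36.2 TPM against 12.2 to 20.4 TPM. The rises came largely from Lck, Nkg7 and Gp9 in that order. Their means were 65.9, 4.06 and 6.76 TPM in wild-type and 197, 20.3 and 31.1 TPM in Pax5-/- cells. Of the other markers with a mean above 1 TPM in either genotype, Cd4 rose (0.534 to 4.93 TPM). Cd5 (8.83 to 2.97 TPM), Klrb1c (5.61 to 1.16 TPM), Pf4 (5.90 to 2.21 TPM), Itga2b and Ppbp fell. Of the 8 T cell markers, 5 or 6 were under 1 TPM in each wild-type and Pax5-/- library, with Cd3d, Cd3e and Cd3g at most 0.432 TPM. Of the 7 natural killer and innate lymphoid markers, 5 were under 1 TPM in each. The part of other cell types in the Jak3 level was not tested.

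Jak1 (chr4:100824972-100937887, minus strand, mm9), the kinase shared by the interleukin-7, interferon and gp130 receptors, measured 94.0, 101 and 113 TPM in wild-type and 83.5 and 78.2 TPM in Pax5-/- cells. The groups did not overlap, and the log2 fold change of -0.34 (95% interval -0.61 to -0.07) narrowly missed the threshold (adjusted p = 0.0523 by limma). It was -0.22 after median-ratio rescaling (limma adjusted p = 0.104) and -0.26 after quantile normalization (limma adjusted p = 0.0763). Jak1 passed in 2 of 14 alternatives. Its marked overlap with Raver2 spans 4 bases, and Raver2 was at most 0.249 TPM.

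Tyk2 (chr9:20908521-20931790, minus strand, mm9), the kinase of type I interferon and interleukin-12 receptors, measured 32.6, 36.5 and 36.3 TPM in wild-type and 47.7 and 42.7 TPM in Pax5-/- cells. Both Pax5-/- values were the higher ones, with a log2 fold change of 0.36 (95% interval 0.07 to 0.64), which just missed the threshold (adjusted p = 0.0544 by limma). Scaling decided this call: the median of all genes was -0.12 on TPM and -0.00306 after rescaling by median ratios, and after that rescaling Tyk2 passed with a log2 fold change of 0.47 (limma adjusted p = 0.0110). In the GENCODE M1 annotation, 1700084C06Rik covers the whole Tyk2 span of 23270 bases. The mm9 reads were counted with featureCounts at its default settings, which ignore strand. The Tyk2 entry itself carried no overlap mark, and the effect of 1700084C06Rik on the Tyk2 level was not tested.

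The JAK transcripts were also compared as shares of their sum and as ratios within a library, and none of the ratios passed a test. Summed JAK levels were 246, 261 and 258 TPM in wild-type and 287 and 275 TPM in Pax5-/- cells. Jak3 made up 44.3%, 41.9% and 35.5% of that sum in wild-type and 51.6% and 53.4% in Pax5-/- cells, while Jak1 made up 38.2%, 38.6% and 44.0% against 29.1% and 28.4%. Ratios within a library do not depend on its scaling. The Jak3 to Jak1 ratio was 1.16, 1.08 and 0.806 in wild-type and 1.77 and 1.88 in Pax5-/- cells, a difference of 0.86 on the log2 scale. The Tyk2 to Jak1 ratio was 0.347, 0.363 and 0.320 against 0.572 and 0.546, a log2 difference of 0.70. The Jak2 to Jak1 ratio was 0.112, 0.142 and 0.146 against 0.0891 and 0.0933, a log2 difference of -0.54. The genotypes did not overlap in any of these. In exact two-sided permutation tests the p-values were 0.1, 0.1 and 0.2 (0.133, 0.133 and 0.2 adjusted over 4 ratios), where 0.1 is the smallest that 3 against 2 libraries allow.

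**Figure D4:**
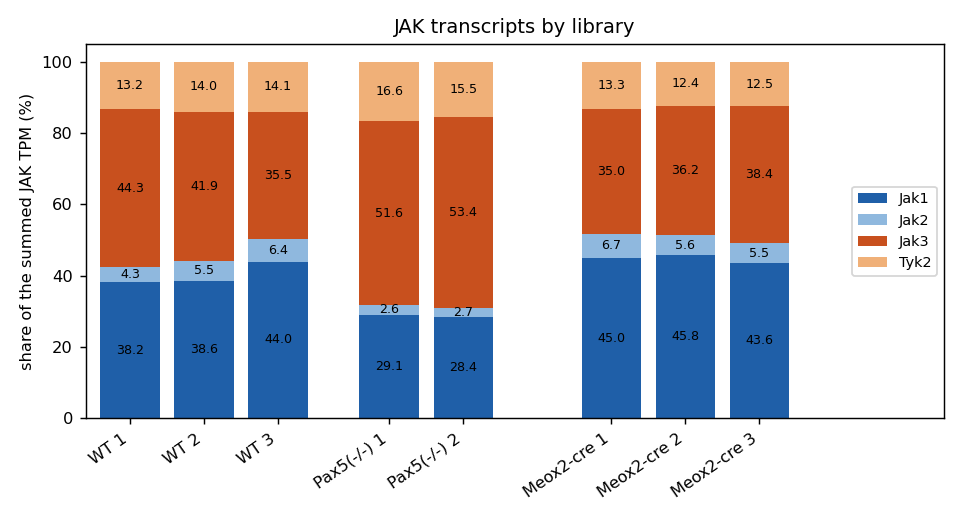
Share of the summed JAK TPM (y axis, %) taken by each kinase in each library, as stacked bars (WT, wild-type). Jak3 takes over 50% in both Pax5-/- libraries and 35.5% to 44.3% in the wild-type libraries, and Jak2 is the smallest share throughout.

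Among the STATs, Stat3, the factor of gp130 and interleukin-10 family receptors, changed most. It measured 63.8, 74.2 and 69.0 TPM in wild-type and 48.8 and 50.5 TPM in Pax5-/- cells, which lay apart. The log2 fold change was -0.47 (95% interval -0.73 to -0.21, adjusted p = 0.0150 by limma), and it was -0.35 after median-ratio rescaling (limma adjusted p = 0.0410).

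Stat5b, which with Stat5a carries the interleukin-7 signal, measured 63.5, 71.5 and 64.9 TPM in wild-type and 52.7 and 53.3 TPM in Pax5-/- cells. The groups lay apart, but the call stood at the edge of the threshold, with a log2 fold change of -0.33 (95% interval -0.58 to -0.07, adjusted p = 0.0485 by limma). After median-ratio rescaling it was -0.21 and did not pass (limma adjusted p = 0.188). Stat5a measured 47.9, 51.9 and 50.5 TPM in wild-type and 47.9 and 43.5 TPM in Pax5-/- cells, and its groups overlapped. Its log2 fold change was -0.13 (95% interval -0.39 to 0.13, adjusted p = 0.387 by limma). The summed STAT5 level was 111, 123 and 115 TPM in wild-type and 101 and 96.8 TPM in Pax5-/- cells, so both Pax5-/- sums were below every wild-type sum. The Stat5b to Stat5a ratio was 1.33, 1.38 and 1.29 against 1.10 and 1.22, a log2 difference of -0.20 (exact two-sided permutation p = 0.1, the smallest possible, and 0.133 adjusted over 4 ratios). Reads lying within the shared stretches printed above could not be assigned to either gene, and the effect of that on the ratio was not tested.

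Stat6 (chr10:127080042-127098013, plus strand, mm9), the interleukin-4 and interleukin-13 factor, measured 76.7, 82.8 and 86.6 TPM in wild-type and 74.3 and 73.9 TPM in Pax5-/- cells. The groups did not overlap, yet the log2 fold change was only -0.14 (95% interval -0.38 to 0.10, adjusted p = 0.307 by limma). Its marked overlap with Nab2 spans 40 bases, and Nab2 was listed at 5.89 to 6.27 TPM in wild-type and 1.495 to 1.53 TPM in Pax5-/- cells. Stat2 (chr10:127707629-127729905, plus strand, mm9), a factor of the type I interferon response, measured 20.3, 31.3 and 33.8 TPM in wild-type and 23.2 and 25.2 TPM in Pax5-/- cells. Wild-type library 1 lay below both Pax5-/- libraries and the other wild-type libraries above them. The log2 fold change was -0.20 (95% interval -0.71 to 0.32, adjusted p = 0.517 by limma), and without that library, which also held the lowest wild-type myeloid and erythroid sums, it was -0.42 (limma adjusted p = 0.0413). Some pro-B markers such as Dntt and Kit were also lowest there among the wild-type libraries, and the part of these differences in the Stat2 levels was not tested.

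The promoters of Jak2 and Jak3 are printed because these members moved farthest in the opposite directions. The windows are from RefSeq on GRCm38.p6, run from 250 bases before the start site to 50 after it, and have the first transcribed base in capitals. They differed in base composition, with 81.0% G and C in Jak2 and 54.3% in Jak3.
Jak2, chr19:29251553-29251852, plus strand: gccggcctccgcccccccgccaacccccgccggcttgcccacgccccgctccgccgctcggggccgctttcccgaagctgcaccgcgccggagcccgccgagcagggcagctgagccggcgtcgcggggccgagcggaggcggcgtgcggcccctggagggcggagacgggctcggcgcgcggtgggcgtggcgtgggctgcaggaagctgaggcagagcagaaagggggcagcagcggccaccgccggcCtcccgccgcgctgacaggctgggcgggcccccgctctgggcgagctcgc
Jak3, chr8:71676133-71676432, plus strand: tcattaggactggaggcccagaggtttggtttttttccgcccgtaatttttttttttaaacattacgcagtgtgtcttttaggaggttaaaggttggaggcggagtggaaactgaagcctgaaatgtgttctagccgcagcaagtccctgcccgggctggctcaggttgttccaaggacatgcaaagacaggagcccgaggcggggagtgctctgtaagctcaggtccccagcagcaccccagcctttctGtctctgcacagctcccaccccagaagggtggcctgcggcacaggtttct

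The promoter windows of the members, 11 in all with both windows listed for Stat5a and for Stat5b, were searched on both strands for 5 motifs: TTCNNNGAA, bound by STATs; CCCNNGGG, bound by the B cell factor Ebf1; CCGGAAG, bound by ETS factors; and the E-boxes CACGTG and CAGGTG. Over 32851 promoters of the same length, 8.30%, 13.7%, 8.86%, 7.15% and 20.2% held them. The Ebf1 motif was in 3 member windows, at -217 from the start site of Stat3, at -219 of Stat5a and at 16 of Stat5b. CAGGTG was at -62 in the same Stat5a window, and 0 of the 11 windows held any of the other 3. The windows of Jak2 and Jak3 held none of the 5.

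In the Pax5(+/+) Meox2-cre cells, a separate set of tables, Jak1 was the most abundant at 145, 150 and 153 TPM, followed by Jak3 at 112, 119 and 135 TPM. Stat6 measured 104.5, 109 and 117 TPM, which overlapped Jak3, and Stat3 measured 86.8, 86.1 and 91.4 TPM. Stat5b (57.6, 55.4 and 58.3 TPM) and Stat5a (57.04, 56.6 and 57.1 TPM) overlapped, with a Stat5b to Stat5a ratio of 1.01, 0.980 and 1.02. Tyk2 (42.7, 40.6 and 43.9 TPM), Stat2 (31.5, 32.2 and 37.4 TPM) and Jak2 (21.6, 18.4 and 19.2 TPM) were the lowest, in that order and without overlap. Replicates were close, with a coefficient of variation of 0.522% for Stat5a and up to 9.60% for Stat2. These libraries were aligned and counted with another genome build and annotation, so no test was made between them and the wild-type libraries.

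The other genes of the pathway were followed in lists of receptor chains, partners, inhibitors and target genes. Of the 65 tested of 75 listed, 12 were lower and 20 higher in Pax5-/- cells, beside 21.5% and 15.6% of all genes tested, and their median log2 fold change was 0.07.

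Of 36 cytokine receptor chains, 26 were tested, 13 were higher and 3 lower (61.5% called, beside 37.1% of all genes), with a median log2 fold change of 0.58. Among the chains that rose were the interleukin-2 receptor chain Il2ra (log2 fold change 1.71) and the interferon-gamma receptor Ifngr1 (1.55). Among the chains that passed, the largest falls were those of the erythropoietin receptor Epor (-2.08), of Il5ra (-1.33) and of Csf2ra (-0.54). Il5ra and Il2ra were low genes, near the filter of 1 TPM in wild-type cells. Their means were 1.04 and 1.02 TPM in wild-type and 0.111 and 4.52 TPM in Pax5-/- cells. Epor was 2.91, 8.89 and 10.97 TPM in wild-type and 1.86 and 0.717 TPM in Pax5-/- cells, in the same library order as the erythroid sum within the wild-type group, and the part of erythroid cells was not tested. Il2rg, the partner chain of Jak3, rose from 118 ± 7.79 TPM (SD, n = 3) to 189 ± 11.3 TPM (n = 2), a log2 fold change of 0.68 (adjusted p = 0.00219 by limma). Both Jak3 and Il2rg were higher in the 2 Pax5-/- libraries than in the 3 wild-type libraries. So were the T cell, innate lymphoid and megakaryocyte sums given above, which rose largely through Lck, Nkg7 and Gp9 while some other markers of those lists fell. The part of other cell types in the Il2rg level was not tested. The interferon receptor Ifnar1 (0.76) and the gp130 chain Il6st (1.41) also rose. Il7r was 81.7, 121 and 141 TPM against 154 and 158 TPM, a log2 fold change of 0.48 (95% interval -0.01 to 0.97, adjusted p = 0.111 by limma), and Crlf2, the thymic stromal lymphopoietin receptor, had -0.07 (95% interval -0.48 to 0.33).

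Of the 12 other STATs and partners, 1 was higher and 2 were lower (25.0% called, below the 37.1% of all genes), with a median of -0.08. The adaptor Sh2b2 rose (2.28), and Pias3 (-0.79) and Pias1 (-0.46), which restrain STATs, fell. Stat4 had a log2 fold change of -0.01 (adjusted p = 0.956 by limma). Of the 15 inhibitors, 2 were higher and 2 lower (26.7% called, also below that share), with a median of 0.04. Socs1 (1.59) and Socs2 (1.09) rose, and Socs3 (-1.29) and the adaptor Sh2b3 (-0.53) fell. Cish, a STAT5 target that feeds back on the receptor, had 0.44 (95% interval -0.17 to 1.06, adjusted p = 0.223 by limma).

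The list of 12 genes known as STAT targets held 4 that were higher and 5 that were lower (75.0% called, beside 37.1% of all genes), with a median of -0.24. The cyclin D genes split, Ccnd1 (1.91) and Ccnd2 (1.76) rising and Ccnd3 (-1.69) falling. Myc rose (1.23), as did the kinase Pim1 (0.38), while the survival gene Bcl2l1 (-2.48) and the repressor Bcl6 (-1.64) fell. Over 2-fold changes were found in 7 of these 12 targets and in 18 of the 65 pathway genes, beside 18.5% of all genes tested and 0 of the 9 JAK and STAT members.

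**Figure D5:**
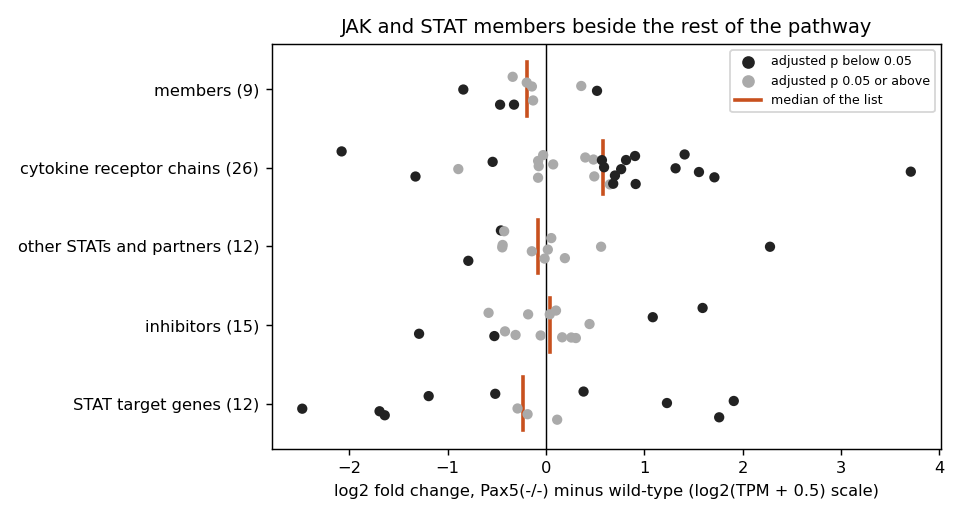
Log2 fold change (x axis, Pax5-/- minus wild-type) of each tested gene in the member set and the 4 pathway lists, with the number tested in parentheses; black points passed an adjusted p of 0.05, grey ones did not, and orange bars are list medians. The 9 members lie between -0.84 and 0.52, and the receptor chains have a median of 0.58.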

How the data were processed

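RNA-seq of 8 pro-B libraries was analysed. The deposited values are TPM per gene, made by the authors: reads of the mm9 libraries were aligned with TopHat 1.4.1a and those of the mm10 libraries with STAR 2.4.2a, then assigned to RefSeq-based genes with featureCounts (version 1.5.0 per the submitters' notes). featureCounts at its default settings leaves out reads aligned to several places and ignores strand. Members were matched by entry name. The members, the lists and the tests were chosen with earlier results of these data known. TPM sums to the same total in each library, so depth in reads is unknown.

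Genes with a mean above 1 TPM in either genotype (12066) were tested as log2(TPM + 0.5) with limma 3.58.1 (lmFit, eBayes with trend, R 4.3.3), with Benjamini-Hochberg adjustment over all of them and a threshold of 0.05. A fold change on that scale understates low genes. The labels do not say whether libraries came from separate mice, so p-values measure the spread between these samples. Ratios within a library were compared by exact permutation. Named genes were all members, the check Pax5, 10 pathway genes whatever their values (Il7r, Il2rg, Crlf2, Ifnar1, Il6st, Cish, Socs1, Socs2, Socs3, Pim1) and, for each list, up to 3 passing genes with the largest rise and fall. Some genes that this rule names are not reported here. Stat4, Nab2, Insl3 and Raver2 were added to account for the family and the overlaps. Sequences were taken from GENCODE M1 (mm9) and RefSeq (GRCm38.p6). The limma code was tested on simulated data, in which most genes changed 2-fold were not called. Alternatives were other pseudocounts, filters, scalings, moderation, thresholds and leaving out each library.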

Additional observations from a re-analysis of the deposited data

How the results depend on the processing

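No paired analysis was possible because no replicate number is shared by the genotypes in their labels. The direction of each of the 9 log2 fold changes was kept in all 14 alternatives run for it. The calls were less stable. Leaving out each library in turn gave 0 to 5 members lower and 0 to 1 higher, and 3 to 14 pathway genes lower and 9 to 21 higher. Without either Pax5-/- library 0 members passed in limma (3 at an unadjusted p below 0.05, against 6 with all libraries), while 14.8% and 12.7% of all genes did: the lone library is then assumed to vary like the wild-type group. Without wild-type library 1 there were 5 members lower, with Jak1 and Stat2 added, and without library 2 there was 1. The calls over all genes moved the same way. Of all genes tested, 3233 of 12127 were lower without library 1 and 1958 of 12036 without library 2, beside 2596 of 12066 with all libraries. Rescaling by median ratios and quantile normalization each gave 2 members higher, Jak3 and Tyk2. They also gave more genes higher in all, 2413 of 12059 and 2460 of 12066, beside 1885 of 12066 on TPM. No member passed at more than 2-fold, by the study's call or at an adjusted p below 0.01 (0 lower and 0 higher each). The pathway list then held 7, 4 and 6 genes lower and, at more than 2-fold and by the study's call, 11 and 5 higher. Stat5b kept its call in 6 of 14 alternatives, Jak2 in 11, and Jak3 and Stat3 in 12. The 4 ratios kept their direction in all 7 alternatives. Removal of the antigen receptor genes before rescaling moved Stat5a in the Meox2-cre cells to 57.3 TPM, more than its replicate SD. With 2 Pax5-/- libraries and depth unknown, many changes of 2-fold or less would not be called, so a member that did not pass is not shown to be unchanged.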
